A study of Mus musculus with 42 samples.

Results

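Solute carriers are membrane proteins that move amino acids, sugars, ions, metals, nucleotides and metabolites across the plasma membrane and the membranes of organelles, mostly as exchangers, cotransporters or facilitators and not as ATP-driven pumps. In mammary epithelium they supply the precursors and ions of milk, and in tumours they feed growth: several amino acid and monocarboxylate carriers are known Myc targets. The genes described here are those whose symbol in the platform annotation begins with Slc and a digit and whose probe had values on both arrays of at least 15 of 21 tumours. This left 109 genes on 112 probes, of 245 such genes with a single symbol on the array. A further 2 symbols shared a probe with another gene and were left out. The symbol also takes in 3 measured genes that are no carriers (Slc4a1ap, Slc7a6os and Slc9a3r2). At the edge of the rule, 8 genes had both arrays of exactly 15 tumours, and 8 had 14 and were not used.

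The samples were 21 mammary tumours that descended from neoplasms of c-Myc transgenic mice (FVB/N-Tg(WapMyc)212Bri), in which the promoter of the milk gene Wap drives the transgene. Selection in living mice had given glandular lines, solid or comedo lines with and without spread to the lungs, and spindle-cell lines. Each tumour RNA was hybridised in a dye-swapped pair of 2-colour arrays against a mouse reference RNA, which gave 42 arrays. Each array is labelled with a tumour number but with no line, passage or host, so the 21 numbered tumours are compared with each other.

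A level below is a log2 ratio of tumour over reference after subtraction of the array's median, and a tumour's level is the mean of its 2 arrays. Which array had which dye was worked out from the values. The direction was then chosen to make the median of Myc positive, so all signs could be wrong together. Each tumour was turned on its own, so a single tumour could also be turned wrongly. Between tumours, the turned array differences correlated with a median of 0.379, and 1 pair lay below 0 (-0.0354). The standard error (SE) given for a gene belongs to a tumour with 2 arrays, and a tumour measured on 1 array has a larger one. P-values measure the disagreement of 2 hybridisations of a tumour, not the spread between animals. In whole tumours, fewer cells of a type and less RNA per cell cannot be told apart.

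Arrays gave values for between 8600 and 21328 of 22800 probes, and their number limits the precision. Over the measured Slc genes, the 2 arrays of a tumour correlated between 0.0451 in tumour 660 and 0.736 in tumour 641, across genes and after turning for the dye swap. Tumour 656, at 0.261 here, was the tumour whose arrays did not oppose each other over all probes before turning (0.0743). It was the lowest tumour for 18.3% of the 109 Slc genes and 13.6% of all genes tested, and the highest for 10.1% and 8.05%. Tumour 667 was the lowest for 13.8% and 18.6% and the highest for 8.26% and 3.81%. Tumour 664 was the lowest for 14.7% and 14.4% and the highest for 0.917% and 1.35%. With all signs turned, lowest and highest change places. The mesenchymal marker list (7 of 7 genes measured) had its highest medians in tumours 646 (2.28), 644 (1.12), 647 (1.02), 649 (0.98) and 673 (0.71), and its other 16 medians lay between -4.14 and -1.72. The epithelial list (8 of 9 measured) ran from -0.99 in tumour 647 to 3.28 in tumour 667, with the same 5 tumours lowest. The same 5 tumours had the 5 highest macrophage medians (8 of 10 measured), 1.5 to 2.14. Hba-a1, a haemoglobin gene and the 1 of 8 red cell markers measured, was also highest in these 5, from 4.80 in tumour 647 to 8.65 in tumour 673, with tumour 656 next at 4.77. Tumours 644, 646, 647, 649 and 673 also had the 5 lowest Myc levels, -0.71 to -0.21. A pattern that follows low Myc and one that follows these markers therefore cannot be told apart in these 5.

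Of the 109 Slc genes, 27 (24.8%) differed between tumours in limma's moderated F test at a Benjamini-Hochberg adjusted p of 0.05 over all genes, beside 19.6% of all 7629 genes tested. At an unadjusted p of 0.05 the shares were 40.4% and 32.6%. The range of tumour levels had a median of 3.35 on the log2 scale for Slc genes and 2.83 for all genes. The array error had a median of 0.81 against 0.75. The share of variance between tumours was near that of all genes (median intraclass correlation 0.20 for each). With dye orientation as a covariate 37 Slc genes (33.9%) differed beside 27.0% of all genes. The 27 were among them, as were all 1495 genes called without the covariate. The array titles hold running numbers, which were put in 3 number groups of 9, 13 and 20 arrays; the labels do not say what the numbers stand for. The first group spans a gap of 3641 in the numbers, while a gap of 3329 parts the second from the third. With these groups as a block 14 Slc genes (12.8%) differed beside 13.0% of all genes. Of the 27 Slc calls 10 were kept, beside 902 of the 1495 calls over all genes. The 10 were Slc12a2, Slc25a24, Slc29a1, Slc6a6, Slc35b4, Slc12a7, Slc16a3, Slc12a4, Slc6a14 and Slc39a13. Splitting at each gap over 1000 gave 4 groups and 14 Slc genes (12.8%) beside 12.3%, and splitting only at the gap of 17026 gave 2 groups and 22 (20.2%) beside 17.5%. Both splits were chosen after seeing the data. The same 10 passed in both of these fits, among 12 and 18 of the 27. Over all genes 839 and 1263 of the 1495 calls were kept. Only 1 tumour had arrays in both of the 2 groups. The fit with 2 groups therefore takes its group difference from that tumour alone, and its calls are a weak check on the number groups. Without tumour 656 the count was 27 (24.8%) beside 20.4%, with 24 of the 27 kept and 1375 of the 1495 calls over all genes. Without array centring 20.2% of Slc genes passed beside 18.9% of all genes, and after quantile normalisation 15.6% beside 14.4%. In the third number group alone the shares were 17.4% and 14.3%, in the first 1.83% and 1.56%, and in the second 0% and 0% in limma's test, with 19 Slc genes and 832 of all genes at an unadjusted p below 0.05. Genes measured on both arrays of all 21 tumours gave 48.6% (18 of 37) beside 26.7%, and no filter gave 4.49% (11 of 245) beside 5.79%. Without probes that often held ratios of small whole numbers the shares were 41.3% (26 of 63) and 30.2%, without tumours 660, 663 and 664 they were 19.3% and 17.9%, and with the dye covariate but no centring 44.0% and 45.1%.

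**Figure D1:**
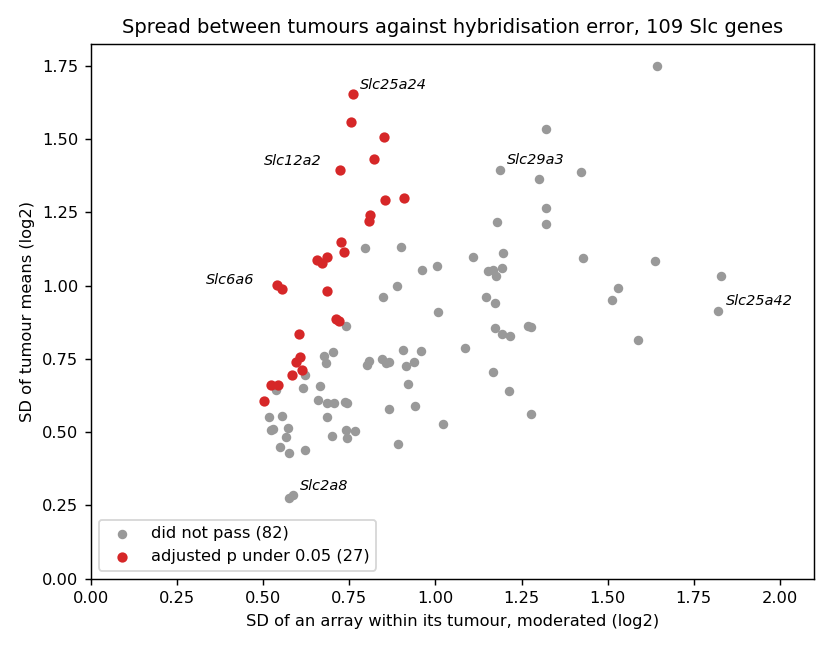
Standard deviation of tumour levels (vertical axis, log2) against the moderated error of a single array (horizontal axis, SD, log2) for the 109 Slc genes, each a point. The 27 genes that differed are marked, and Slc29a3, with a range of 7.02 that rests on 1 array at each end, stayed below the threshold with a larger error.

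The genes that differed were 7 of 19 carriers of amino acids and amines, 6 of 13 of ions, phosphate and urea, and 5 of 23 mitochondrial carriers. A further 3 of 11 genes of the nucleotide sugar family differed, and 2 of 16 carriers of metals and haem. Classes were set by the Slc family number, so a member can carry another substance, as does Slc35b1 in the nucleotide sugar class. Both the carboxylate, fatty acid and choline carriers and the nucleoside, vitamin and organic ion carriers had 2 of 9. Of 6 carriers of sugars and inositol 0 differed in limma's test, and 0 had an unadjusted p below 0.05. This small class had a median array error of 1.17, against 0.81 for the 109 Slc genes. The class counts stand beside 19.6% of all 7629 genes tested. They describe the classes and were not tested against each other.

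**Figure D2:**
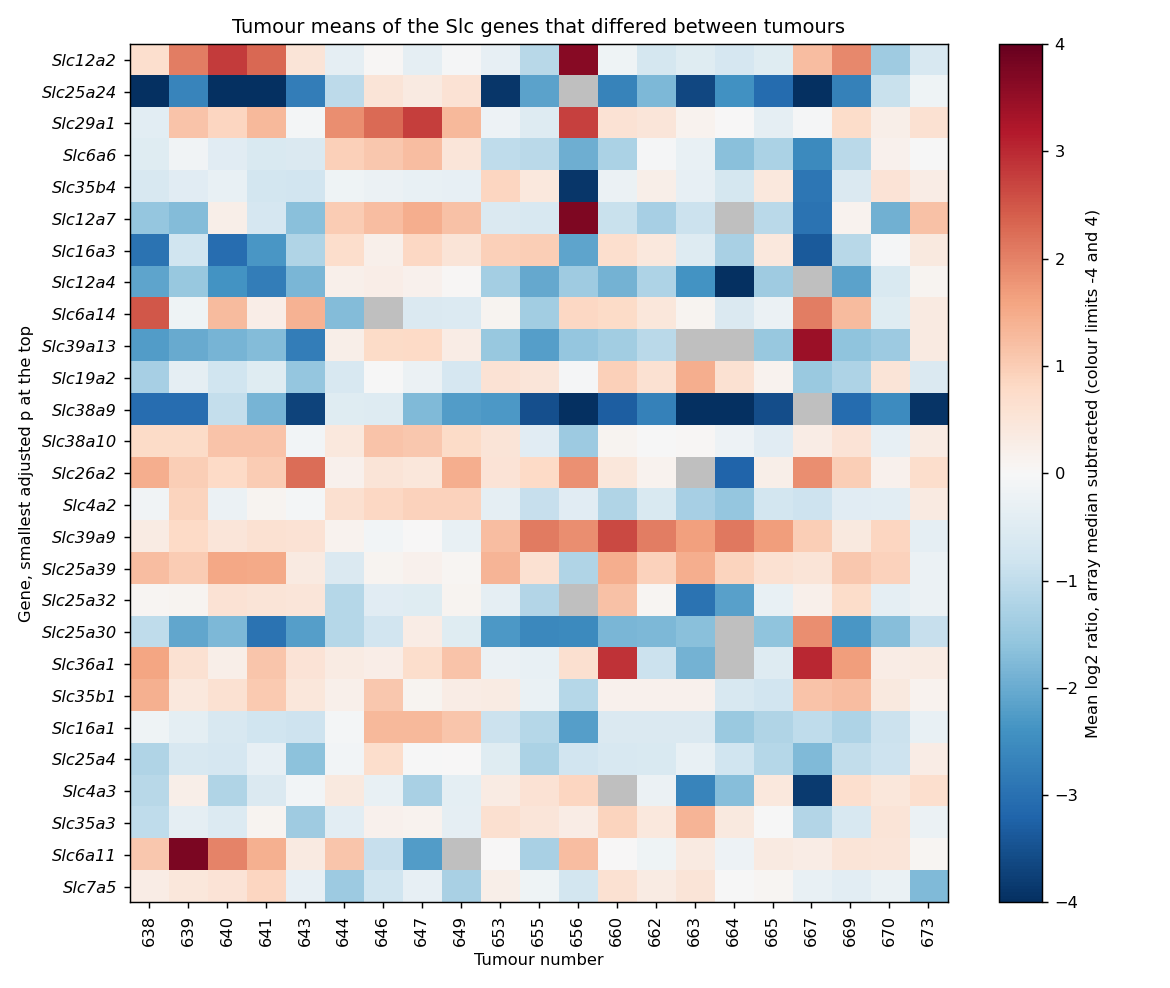
Levels (mean log2 ratio, array median subtracted) of the 27 Slc genes that differed, in rows, in the 21 tumours, in columns by tumour number; grey cells have no value on either array. Slc12a4 was highest and Slc39a9 lowest in tumours 644, 646, 647, 649 and 673, and Slc12a2 was highest in 656, 640, 641, 639 and 669.

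Of 5 measured cation-chloride cotransporter family genes 3 differed, beside 19.6% of all 7629 genes tested. The family was not tested as a set. Slc12a2, the sodium-potassium-chloride cotransporter that loads secretory epithelia with chloride, varied between -1.44 (tumour 670) and 3.64 (tumour 656) around a median of -0.17 (SE 0.51, adjusted p = 1.2e-04). Its highest tumours, 656, 640 (2.81), 641 (2.31), 639 (2.05) and 669 (1.94), had both arrays above the mean of each of the other 16. Tumour 656 gave 3.56 and 3.73 on its arrays and tumour 640 gave 3.21 and 2.42. Without tumour 656 the adjusted p was 0.00128, with number group as a block 8.4e-04, and among arrays of the third number group alone 0.0177. In the first and the second group alone it was 0.169 and 0.148.

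Slc12a4 and Slc12a7 encode potassium-chloride cotransporters, which carry chloride out of cells. Slc12a4 varied between -5.02 (tumour 664) and 0.27 (tumour 646) around a median of -1.48 (SE 0.60, adjusted p = 0.00574), over 20 tumours. Its 5 highest tumours were 646, 644, 647, 673 and 649, between 0.06 and 0.27, the 5 with the highest mesenchymal and macrophage medians. The next was tumour 670 at -0.62, whose arrays read -1.55 and 0.31, and the lowest, tumour 664, rested on -6.40 and -3.63. Slc12a7 varied between -2.96 (tumour 667) and 3.74 (tumour 656) around a median of -0.66 (SE 0.53, adjusted p = 0.00198). Its lowest and highest tumours had a value on 1 array each, and tumours 644, 673, 649, 646 and 647 followed the highest with 1.01 to 1.46. Slc12a7 did not pass without array centring (0.0685) or with the repeated top value of the table kept as a measurement (0.958). The 5 tumours highest in the mesenchymal, macrophage and red cell markers were thus the highest for Slc12a4 and came after tumour 656 for Slc12a7. Tumour 656 itself had a mesenchymal median of -3.82 and a macrophage median of -1.23. The part of these markers was not tested. The remaining family members did not pass: Slc12a5, a potassium-chloride cotransporter of neurons, had levels between -2.28 (tumour 663) and 1.19 (tumour 669) (SE 0.86, adjusted p = 0.75), and Slc12a9 between -1.14 (tumour 673) and 0.86 (tumour 669) (SE 0.53, adjusted p = 0.574).

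Of the other ion carriers, the anion exchanger Slc4a2 varied between -1.54 (tumour 664) and 0.92 (tumour 649) around a median of -0.37 (SE 0.43, adjusted p = 0.0256). Tumours 649, 647, 639, 646 and 644 were its highest, between 0.63 and 0.92. The call ended when either array of tumour 649 or the first of tumour 664 was left out (adjusted p up to 0.0534), and with number group as a block it was 0.23. Slc26a2, the sulphate transporter that supplies proteoglycan sulphation, lay between 0.15 and 2.24 in 19 tumours. The remaining one, tumour 664, was at -3.20 from 1 array, and without that array the adjusted p went from 0.0231 to 0.293. Slc4a3, an anion exchanger best known from heart and brain, varied between -3.83 (tumour 667) and 0.85 (tumour 656) (SE 0.57, adjusted p = 0.0377), with 1 array behind each end, and did not pass without centring (0.102). The phosphate transporter Slc20a1 did not pass (adjusted p = 0.0652), with levels between -0.90 (tumour 667) and 2.11 (tumour 647).

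**Figure D3:**
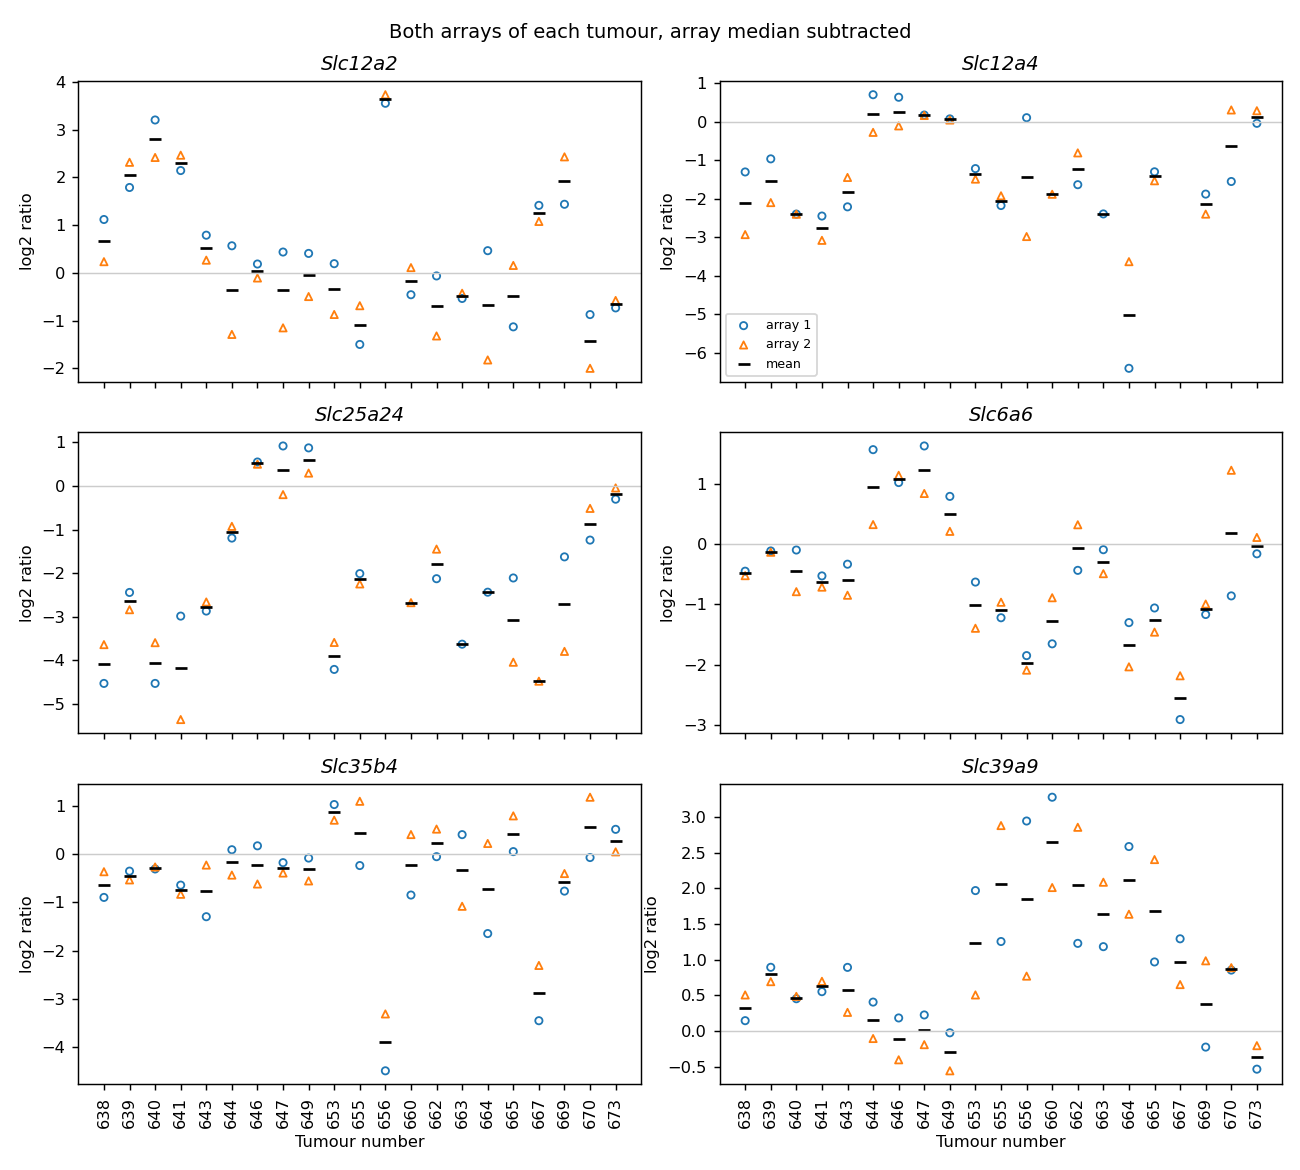
Log2 ratio (array median subtracted) on each array of 21 tumours for Slc12a2, Slc12a4, Slc25a24, Slc6a6, Slc35b4 and Slc39a9; circles and triangles are the 2 arrays of a tumour, bars their mean, and a lone symbol marks a tumour measured on 1 array. Slc35b4 had both arrays of tumours 656 and 667 below those of the other 19 tumours, and Slc39a9 was highest in the 8 tumours from 653 to 665.

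Among amino acid and amine carriers, Slc6a6, the taurine transporter, varied between -2.54 (tumour 667) and 1.23 (tumour 647) around a median of -0.49 (SE 0.39, adjusted p = 3.7e-04). All 21 tumours had both arrays. Tumours 647 (1.62 and 0.84), 646 (1.02 and 1.14) and 644 (1.56 and 0.32) were the highest, and tumour 667 gave -2.91 and -2.18. Slc6a14, a transporter of neutral and basic amino acids, varied between -1.74 (tumour 644) and 2.50 (tumour 638) around a median of 0.19 (SE 0.47, adjusted p = 0.00577). It was above 1 in tumours 638, 667, 643, 669 and 640. Of the 5 tumours with the highest mesenchymal medians, 644, 647 and 649 lay at -1.74, -0.56 and -0.55, 673 at 0.36, and 646 had no value.

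Slc7a5, the light chain of the large neutral amino acid transporter LAT1, stood at the threshold. It varied between -1.76 (tumour 673) and 0.87 (tumour 641) around a median of -0.18 (SE 0.43, adjusted p = 0.0489). Tumours 673, 644, 649 and 646 were its lowest. These were among the 5 tumours with the lowest Myc, at -0.71 to -0.21, which were also the 5 with the highest mesenchymal and macrophage medians. Its call was lost on leaving out any of 32 of the 42 arrays and with number group as a block (0.117). It was kept as deposited (0.00989) and without tumour 656 (0.0271). Slc3a2, the heavy chain that brings LAT1 to the cell surface, did not pass (adjusted p = 0.36), with levels between -1.78 (tumour 656) and 0.37 (tumour 663). Slc1a5, the glutamine transporter ASCT2 and a Myc target, had levels between -1.66 (tumour 644) and 1.5 (tumour 667) and did not pass either (0.0939), though it did with dye orientation as a covariate (0.0358). Slc38a2, a glutamine and alanine transporter, had an adjusted p of 0.24, and 0.0111 without centring.

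The levels of the LAT1 chains were correlated across tumours. Both levels of a tumour come from the same 2 arrays, and Slc3a2 itself did not pass the test between tumours. Array error shared by the 2 genes can therefore enter the correlation, and permuting tumours does not remove it. Slc3a2 and Slc7a5 had a Pearson correlation of 0.70 (permutation p = 3.3e-04, adjusted 0.0033 over 10 partner pairs) and a Spearman correlation of 0.73 (permutation p = 2.4e-04, adjusted 0.0024) over 21 tumours, two-sided. Without the 2 tumours farthest from the median of Slc3a2 the Pearson correlation was 0.63 (permutation p = 0.00316). In the 8 tumours with both arrays in the third number group it was 0.57 (exact permutation p = 0.135), and the other groups had too few tumours. Tumours 673, 644, 649, 646 and 647 lay lower in Slc7a5 than tumours with a similar Slc3a2, as in 649 (-1.31) against 655 (-0.18), which had -0.69 and -0.69 for Slc3a2. The correlation pools these 5 with the other 16. The remaining pairs of this kind did not pass. Slc3a2 with Slc7a10, another light chain, gave -0.29 (permutation p = 0.197). Bsg, the chaperone basigin, gave -0.08 with Slc16a1 (permutation p = 0.755), 0.36 with Slc16a3 (permutation p = 0.132) and -0.09 with Slc16a8 (permutation p = 0.706) over 19 tumours. Of these, 15 had both arrays for Bsg. Spearman values for these 4 pairs ran from -0.16 to 0.20, and without the 2 farthest tumours Pearson values ran from -0.36 to 0.20.

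**Figure D4:**
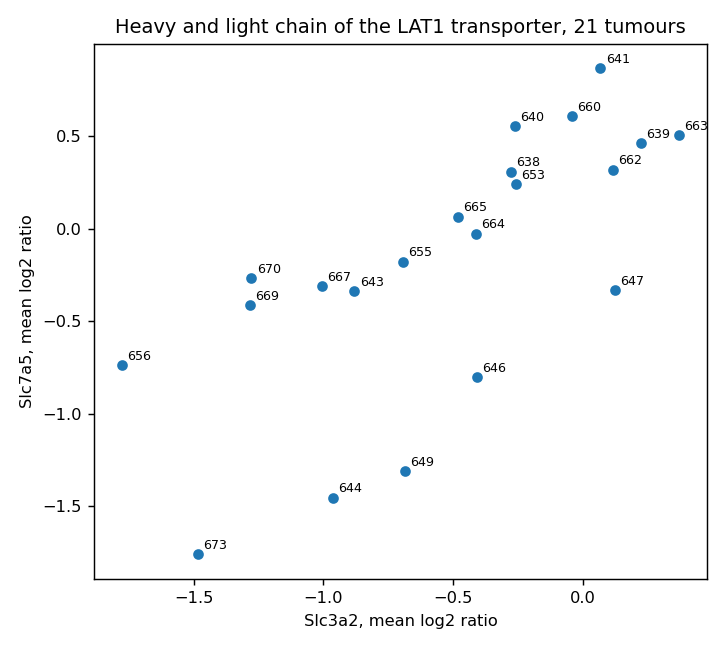
Levels (mean log2 ratio of 2 arrays, array median subtracted) of Slc7a5 against Slc3a2 in the 21 tumours, each labelled with its number. Tumour 656 is lowest for Slc3a2 at -1.78, and tumour 673 is lowest for Slc7a5 at -1.76; tumours 644, 646, 647, 649 and 673 form a lower line than the other 16.

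The carriers Slc38a9, Slc36a1, Slc38a10 and Slc6a11 completed the amino acid group. Slc38a9, the lysosomal protein that senses arginine for the growth kinase mTORC1, varied between -5.13 (tumour 656) and -0.49 (tumour 644) around a median of -3.04 (SE 0.64, adjusted p = 0.0189). It was highest in 644, 646 and 640 (-0.95), and did not pass with number group as a block (0.114; 0.0498 with 4 groups and 0.0746 with 2). Slc36a1, a proton-coupled carrier of small amino acids in lysosomes, varied between -1.88 (tumour 663) and 3.00 (tumour 667) (SE 0.51, adjusted p = 0.0323), with 1 array behind the lowest and the 2 highest tumours. Slc38a10 varied between -1.46 (tumour 656) and 1.15 (tumour 641) (SE 0.37, adjusted p = 0.0225) and did not pass without tumour 656 (0.0526). Slc6a11, a GABA transporter, had the largest range of this class, between -2.23 (tumour 647) and 3.77 (tumour 639) (SE 0.57, adjusted p = 0.0487), with 1 array behind each end. Its call was lost on leaving out any of 34 arrays.

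Among lactate and pyruvate carriers, Slc16a3, the MCT4 exporter of lactate from glycolytic cells, varied between -3.34 (tumour 667) and 0.98 (tumour 655) around a median of -0.04 (SE 0.58, adjusted p = 0.00253). It was low in tumours 667, 640 (-3.04), 638 (-2.95), 641 (-2.34) and 656 (-2.12). Tumours 640, 641 and 656 had 1 array each. The arrays of tumour 667 read -1.57 and -5.12, so its level was imprecise, while those of tumour 638 read -2.88 and -3.01. Slc16a1, the MCT1 carrier, varied between -2.20 (tumour 656) and 1.30 (tumour 646) around a median of -0.64 (SE 0.51, adjusted p = 0.0329). Tumours 646, 647 and 649 stood apart at 1.30, 1.29 and 1.12, with the next at -0.09 in tumour 644. These 4 had Myc levels of -0.40, -0.42, -0.21 and -0.71, and 16 other tumours lay at 1.65 or above. Slc16a1 did not pass without tumour 656 (0.0751) or with number group as a block (0.139). Slc16a3 did not pass without centring (0.108). Among fatty acid carriers Slc27a3 had the largest range, between -2.22 (tumour 667) and 3.45 (tumour 660), and did not pass (adjusted p = 0.311).

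Since the tumours carry a Myc transgene, the promoters of the Slc genes that differed were searched for CACGTG, the E-box that Myc and related factors can bind, which reads the same on both strands. The windows were those of RefSeq on GRCm38.p6, 300 bases around a gene's start, and 91 of the 109 genes had at least 1. The E-box was in a window of 18 of these 91 genes (19.8%), of 12.1% of all tested genes with a window, and of 4 of the 22 with a window that differed (18.2%). The 4 were Slc12a7, Slc29a1, Slc36a1 and Slc16a1. It is shown for the last 3, a nucleoside, a lysosomal amino acid and a lactate carrier, with the E-box in capitals. For Slc29a1 it is one of several windows. The windows lie at chr17:45595197-45595496, minus strand, for Slc29a1, chr11:55204090-55204389, plus strand, for Slc36a1, and chr3:104638414-104638713, plus strand, for Slc16a1. A match is a string of letters and no measure of binding.
Slc29a1: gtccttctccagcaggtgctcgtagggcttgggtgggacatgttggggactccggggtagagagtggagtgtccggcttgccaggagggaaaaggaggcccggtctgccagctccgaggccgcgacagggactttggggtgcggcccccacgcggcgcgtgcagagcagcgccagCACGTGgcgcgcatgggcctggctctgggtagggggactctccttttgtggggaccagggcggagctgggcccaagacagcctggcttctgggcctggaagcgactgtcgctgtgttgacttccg
Slc36a1: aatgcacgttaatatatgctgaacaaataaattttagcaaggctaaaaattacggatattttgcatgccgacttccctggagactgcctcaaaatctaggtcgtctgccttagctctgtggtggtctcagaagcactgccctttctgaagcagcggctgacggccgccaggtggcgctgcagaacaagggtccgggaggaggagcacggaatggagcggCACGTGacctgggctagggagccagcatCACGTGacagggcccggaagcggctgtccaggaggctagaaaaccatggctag
Slc16a1: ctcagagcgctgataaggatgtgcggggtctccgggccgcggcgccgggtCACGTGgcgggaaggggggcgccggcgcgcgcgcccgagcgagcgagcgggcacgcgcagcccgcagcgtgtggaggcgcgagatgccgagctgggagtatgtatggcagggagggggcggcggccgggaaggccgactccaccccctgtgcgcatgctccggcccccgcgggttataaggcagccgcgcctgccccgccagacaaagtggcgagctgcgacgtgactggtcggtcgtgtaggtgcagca
The window of Slc36a1 held 2 matches and the others 1. The highest tumours for Slc36a1, 667 at 3.00 and 660 at 2.88 from 1 array each, had Myc levels of 3.54 and 2.48. Tumour 649, among the 5 with the lowest Myc, was also among the 5 highest for Slc36a1, at 1.13. The 5 lowest tumours for Slc36a1 (663, 662, 665, 655 and 653) all had Myc levels between 1.65 and 2.76. Slc16a1 was highest in 3 of the 5 tumours with the lowest Myc, which also had the 5 highest mesenchymal and macrophage medians. Myc levels fell into 3 separate groups of 5, 14 and 2 tumours, so a correlation with Myc was taken only within the 14. There it was -0.02 for Slc7a5 (permutation p = 0.949), 0.01 for Slc3a2 (permutation p = 0.972), 0.31 for Slc1a5 (permutation p = 0.273), 0.39 for Slc16a1 (permutation p = 0.174) and 0.16 for Slc19a1 (permutation p = 0.596). Spearman correlations ran from -0.13 to 0.25 (permutation p of 0.391 and above), the adjusted p over 10 pairs was 0.493 or more, and without the 2 tumours farthest in Myc Pearson values ran from -0.32 to -0.05. A second motif, TGATGNAA, a core of the amino acid response element, was in 3 of 91 Slc genes (3.3%) and 2.63% of all tested genes, searched on both strands.

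The equilibrative nucleoside transporter Slc29a1 varied between -0.52 (tumour 655) and 2.76 (tumour 647) around a median of 0.56 (SE 0.38, adjusted p = 2.7e-04). Tumours 647 (3.06 and 2.47), 656 (1.88 and 3.59), 646 (2.38 and 2.16) and 644 (2.32 and 1.43) were highest. It passed with number group as a block (0.00149) and without tumour 656 (2.7e-04), but not with the repeated top value kept (0.388). Slc19a2, the high-affinity thiamine transporter, varied between -1.54 (tumour 643) and 1.46 (tumour 663) around a median of -0.23 (SE 0.43, adjusted p = 0.00898). It was lowest in tumours 643, 667, 638, 669 and 640. Its 5 highest tumours, 663, 660, 662, 664 and 653, each had at least 1 array in the second number group, and with number group as a block its adjusted p was 0.173 (0.203 with 4 groups and 0.016 with 2). Slc29a3, a nucleoside transporter of lysosomes, reached 6.22 in tumour 663 from 1 array, against a median of 1.48, with an adjusted p of 0.282. Slc19a1, the reduced folate carrier, did not pass either (0.15).

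Of the metal carriers, Slc39a13, a zinc transporter linked to connective tissue, varied between -2.77 (tumour 643) and 3.43 (tumour 667) around a median of -1.5 (SE 0.60, adjusted p = 0.00797), over 19 tumours. The value of tumour 667 came from 1 array. Below it lay tumours 647, 646, 673, 649 and 644, between 0.24 and 0.81, the 5 with the highest mesenchymal medians, and the next was tumour 662 at -1.08. For Slc39a9, another zinc transporter, the same 5 were at the other end. Tumours 673, 649, 646, 647 and 644 were its 5 lowest, between -0.37 and 0.15, and it reached 2.64 in tumour 660 (SE 0.50, adjusted p = 0.0262). Its 8 highest tumours were the 8 that had an array in the second number group, and with number group as a block the adjusted p was 0.433 (0.49 with 4 groups and 0.0533 with 2). Slc39a13 kept its call there (0.0208) but not without centring (0.0737), and the call of Slc39a9 ended without the second array of tumour 649 or the first of tumour 673 (up to 0.0523). The iron transporter Slc11a2 had levels between -1.76 (tumour 673) and 3.08 (tumour 656) and did not pass (0.0711), nor did Slc30a4 (0.508), the zinc transporter of milk secretion.

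The mitochondrial carriers held the gene with the second smallest p. Slc25a24, which exchanges ATP-magnesium for phosphate under the control of calcium, varied between -4.48 (tumour 667) and 0.58 (tumour 649) around a median of -2.66 (SE 0.54, adjusted p = 1.7e-04). The level of tumour 667 rested on 1 array. Tumours 649 (0.87 and 0.29), 646 (0.55 and 0.50), 647 (0.92 and -0.20) and 673 (-0.30 and -0.05) were highest. Tumours 670 (-0.88) and 644 (-1.06) followed, the other 14 measured tumours lay at -1.79 or below, and tumour 656 had no value. The call held with number group as a block (4.5e-04) and in the third group alone (0.0137). Slc25a4, the heart and muscle form of the ADP/ATP carrier, varied between -1.76 (tumour 667) and 0.71 (tumour 646) (SE 0.36, adjusted p = 0.0352). Tumours 646, 673, 649, 647 and 644 were its 5 highest, and the call was lost on leaving out any of 16 arrays. Slc25a5, the ADP/ATP carrier of proliferating cells, had levels between -1.23 (tumour 656) and 1.54 (tumour 663) and did not pass (0.0685), though it did without centring (0.0277).

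Slc25a39, which imports glutathione into mitochondria, was lowest in tumours 656, 644, 673, 649 and 646 and varied between -1.20 (tumour 656) and 1.55 (tumour 640) (SE 0.42, adjusted p = 0.0279). The arrays of tumour 656 disagreed, at -2.75 and 0.36, and without that tumour the adjusted p was 0.00342. Leaving out either array of tumour 644 ended the call (0.0578 at most), and so did leaving the arrays uncentred (0.149). Slc25a32, a mitochondrial folate and flavin carrier, varied between -2.96 (tumour 663) and 1.17 (tumour 660) (SE 0.48, adjusted p = 0.03), with tumours 663 and 664 (-2.17) lowest. Tumours 660 and 664 had a value on 1 array each. All 3 of these tumours had an array under 13000 probes. Slc25a30 varied between -2.96 (tumour 641) and 1.86 (tumour 667) (SE 0.52, adjusted p = 0.0308), its highest tumour with 1 array and tumours 647, 649, 646 and 673 next, and it did not pass without centring (0.121). The calls of Slc25a32 and Slc25a30 were lost on leaving out any of 4 and 5 arrays.

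Nucleotide sugar carriers feed glycosylation in the Golgi and endoplasmic reticulum. Slc35b4, a carrier of UDP-xylose and UDP-N-acetylglucosamine, varied between -3.90 (tumour 656) and 0.87 (tumour 653) around a median of -0.29 (SE 0.46, adjusted p = 0.00103). Tumours 656 (-4.49 and -3.31) and 667 (-3.45 and -2.31) were low on both arrays, and the third lowest was tumour 643 at -0.76. Without tumour 656 the adjusted p was 0.0398. Tumours 656 and 667 also had the highest Myc, at 3.33 and 3.54. Each was the lowest tumour for 6 of the 27 Slc genes that differed and the highest for 3, counts that change places with the sign. Over all genes tested, whether they differed or not, tumour 656 was the lowest for 13.6% and the highest for 8.05%. For tumour 667 these shares were 18.6% and 3.81%. Slc35a3, a carrier of UDP-N-acetylglucosamine, varied between -1.41 (tumour 643) and 1.36 (tumour 663) (SE 0.41, adjusted p = 0.0396), with the same 5 lowest tumours as Slc19a2, and its call was lost without centring (0.264) and with number group as a block (0.337). Slc35b1, the ATP/ADP exchanger of the endoplasmic reticulum, varied between -1.15 (tumour 656) and 1.43 (tumour 638) (SE 0.38, adjusted p = 0.0324) and did not pass without tumour 656 (0.0826). Slc35b3 had the largest range of the class, between -2.97 (tumour 664) and 1.81 (tumour 639), and did not pass (0.278).

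The sugar carriers gave no call, and Slc5a3, the myo-inositol cotransporter, had the largest range among them, between -2.09 (tumour 670) and 2.43 (tumour 656) (adjusted p = 0.478). Several genes of interest in mammary or tumour tissue had both arrays in fewer tumours than the minimum and are not described: the glucose transporter Slc2a1 (11 tumours), the cystine carrier Slc7a11 (9), the phosphate cotransporter Slc34a2 (2) the iodide transporter Slc5a5 (3), and Slc9a3r1, a scaffold protein (8). The same held for markers of other cell types, Slc11a1 of macrophages (14), Slc40a1, the iron exporter of macrophages (11), Slc15a3, a peptide transporter of immune cells (10), and Slc4a1 of red cells (11). Among the 3 genes that are no carriers, Slc4a1ap had the largest range, between -2.06 (tumour 667) and 3.65 (tumour 656), and did not pass (0.0723).

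Genes that pair with, energise or regulate solute carriers were taken from a list of 45, of which 25 were measured and 9 (36.0%) differed, beside 19.6% of all genes tested. Atp1b1, a subunit of the sodium pump whose gradient drives many carriers, varied between -2.77 (tumour 647) and 2.92 (tumour 640) around a median of -0.28 (SE 0.39, adjusted p = 1.3e-08). Stk39, the kinase SPAK that activates Slc12a2 and inhibits potassium-chloride cotransport, varied between -2.02 (tumour 649) and 1.14 (tumour 640) (SE 0.43, adjusted p = 0.0011). Tumour 640 was highest for Atp1b1 and Stk39 and second highest for Slc12a2. The second highest tumours were 667 for Atp1b1 and 641 for Stk39, and not tumour 656, the highest for Slc12a2. A relation of either gene to Slc12a2 was not tested. Msn, the membrane-cytoskeleton linker moesin, varied between -4.04 (tumour 667) and 1.49 (tumour 646) (SE 0.43, adjusted p = 2.1e-06), and Fxyd5, a modulator of the sodium pump, between -5.29 (tumour 663) and 1.09 (tumour 646) (SE 0.55, adjusted p = 1.5e-04). Hif1a (4.2e-04), Myc (6.3e-04), Insig1 (0.0118), Ezr (0.0214) and the ubiquitin ligase Nedd4l (0.0339) also differed. Ezr did not pass without centring (0.589), after quantile normalisation (0.078) or with number group as a block (0.156). Nedd4l did not pass without centring (0.0686), after quantile normalisation (0.0678) or with the repeated top value kept (0.696), and was lost on leaving out any of 14 arrays. Bsg (0.197), Atf4 (0.785) and Sgk1 (0.166) did not pass, though Bsg did with the repeated top value kept (1.5e-04).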

How the data were processed

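The deposited table holds, per the labels' protocols and its values, log2 ratios of the Cy3 and Cy5 channels for 22800 probes; how the authors processed images, background and centring is not stated in the sources used. The repeated top value of 16.61 (15512 values) was set missing. Dye orientation came from the first eigenvector of the correlations between the 21 array differences, with 42 arrays oriented alike by both random parts of the probes. Turned arrays had medians from -1.38 to 1.22, so each was centred. Probes of a gene were averaged over those with both arrays in 15 tumours. R 4.3.3 and limma 3.58.1 gave the moderated F test of the tumour factor, with missing values allowed and Benjamini-Hochberg adjustment over 7629 genes, checked on simulated data. Partner pairs used 100000 permutations (exact with 8 tumours) and mclust 6.1.1 for separate groups.

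Members and lists were chosen with earlier results of these data known. Named genes were those past the threshold, the largest range per class, and a fixed list. All 109 gene identifiers matched RefSeq with the same symbol.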

Additional observations from a re-analysis of the deposited data

How the results depend on the processing

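Of the 27 Slc genes that differed, 13 kept their call in each of 42 fits without 1 array. Over those fits the count of Slc genes ran from 17 to 33, that of all genes from 1184 to 1837 and that of partner genes from 7 to 11, and 1 partner pair passed in each. The lowest count of Slc genes, 17, came without either array of tumour 649. Quantile normalisation gave 17 Slc genes (15.6%, beside 14.4% of all genes), all among the 27. The arrays as deposited gave 22 (20.2%, beside 18.9%), of which 17 were among the 27. Over all genes 1051 and 964 of the 1495 calls were kept in these fits. With 3 number groups as a block 14 Slc genes and 995 of all genes passed, and with 4 groups, chosen after seeing the data, 14 and 936. These fits take the group differences from the 4 and 6 tumours whose arrays lay in different groups. The fit with 2 groups, also chosen after seeing the data, takes its group difference from 1 tumour. Calls of Slc16a1, Slc36a1, Slc35b1, Slc4a3 and Slc35a3 were lost without any of 6, 7, 9, 18 and 24 arrays. The first number group alone gave 2 Slc genes, 119 of all genes and 2 partner genes, and the third gave 19 Slc genes (17.4%, beside 14.3%). The second gave 0, 0 and 0 in limma's test, with 19 Slc genes and 832 of all genes at an unadjusted p below 0.05. Genes with both arrays in all 21 tumours gave 889 calls of 3326 (26.7%), and 18 of 37 Slc genes (48.6%), and no filter gave 11 Slc genes (4.49%) and 873 of all genes (5.79%). Both changed how many genes were tested. With dye orientation as a covariate and no centring, a setting chosen after seeing the data, 48 Slc genes (44.0%), 3437 of all genes (45.1%) and 15 partner genes passed. Without centring 3 partner pairs passed, and among 5 pairs in the third number group 0 did by adjusted permutation p. Probes with over 20% whole-number dye ratios held 46 of the 109 Slc genes. Leaving them out, also chosen after seeing the data, gave 26 of 63 (41.3%, beside 30.2%), 21 of them among the 27. The other 6 of the 27 had such probes and were not tested there, so 0 calls were lost among those tested. Without tumours 660, 663 and 664, which each had an array under 13000 probes, 21 Slc genes (19.3%, beside 17.9%) passed. Of these, 18 were among the 27, and 1150 of the 1495 calls over all genes were kept. The cause of these changes was not tested. No paired analysis was possible because replicate numbers follow accession order and pair no arrays across tumours; dye orientation, which links arrays across tumours, was fitted as a covariate instead (37 Slc genes, 33.9%, beside 27.0%).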
